A study of Mus musculus with 16 samples.

Results

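Toll-like receptors are membrane proteins that recognise molecules of bacteria and viruses, and in the gut epithelium they meet the products of the resident microbiota. Tlr1, Tlr2, Tlr4 and Tlr5 act at the cell surface, where Tlr1 pairs with Tlr2 to bind lipopeptides, Tlr4 binds lipopolysaccharide and Tlr5 binds flagellin, whereas Tlr3 and Tlr9 act in endosomes and bind double-stranded RNA and unmethylated CpG DNA. Myd88 is the adaptor of all of these receptors except Tlr3, which signals through Ticam1 (TRIF), an adaptor that Tlr4 also uses, and Tollip and Sigirr restrain the signal.

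These 10 genes, chosen by name from the 45513 genes of the count files, were compared between 2 fractions of small intestinal epithelium. Per the methods, the tissue was the proximal part of the small intestine. Crypt-enriched preparations were pooled for the sort, and the villus-enriched one was left out. The cells came from 8 mice of C57BL/6 background, males and females aged 8 to 16 weeks, that were homozygous for Atoh1(WT)CreERT2 and heterozygous for a Rosa26 tdTom reporter. In this allele CreERT2 lies downstream of the Atoh1 coding sequence, so that the promoter of Atoh1, the transcription factor of secretory cells, drives it and tamoxifen switches on tdTom in cells that express it. Per the labels and the methods on animal treatment, all mice received 1 mg tamoxifen a day on 3 days, although the methods on RNA sequencing give a single injection. Each mouse gave 1 library of live EpCAM+tdTom+ cells and 1 of live EpCAM+tdTom- cells, so that both fractions share genotype, tamoxifen and the sort for EpCAM, a surface protein of epithelial cells, and differ in the label.

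Libraries held between 17116405 and 25323567 counts assigned to genes. Goblet, Paneth and absorptive markers fitted the labels. All 8 goblet and all 8 Paneth markers were higher in tdTom+ cells, and all 8 absorptive markers were lower. All 8 enteroendocrine and 7 of 8 tuft markers were also higher in tdTom+ cells. The paper's staining soon after a single pulse of tamoxifen found tdTom in neither tuft nor enteroendocrine cells, and found it in enteroendocrine cells a few days later. The labels of these libraries give tamoxifen on 3 days, so dose and time were not alike. The tdTom+ fraction was thus compared with a fraction rich in absorptive cells, and in sorted populations a smaller number of cells that express a gene cannot be told apart from less RNA of it per cell. Leukocyte RNA differed as well. The summed level of 16 leukocyte markers lay between 10.2 and 20.4 CPM (counts scaled to a common library size with TMM factors) in tdTom+ libraries and between 20.4 and 81.7 CPM in tdTom- libraries, and was higher in the tdTom- library of 8 of 8 mice. The tdTom- libraries of mouse 7 and mouse 8 stood apart at 81.7 and 78.8 CPM, against 20.4 to 34.9 CPM in the other 6. Of these markers 9 passed the filter on low counts, 7 were called lower in tdTom+ cells and none was called higher. Over all genes tested 30.0% were called lower and 25.8% higher.

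Motifs of factors that act in this pathway or in these cells were searched on both strands of the 250 bases before each RefSeq transcription start (GRCm38.p6), which were found for 8 of the 10 genes. Of these, 2 held the NF-kB consensus, 1 held GAAANNGAAA, the core of the interferon-stimulated response element, 2 held the E-box CAGATG and 0 held the E-box CAGCTG. Among all 32851 promoters of the table the shares were 3.90%, 2.98%, 14.4% and 13.0%. The windows with the first 2 motifs are shown because they carry the letters by which the pathway's own transcription factors are known; capitals mark the match, and the Tlr2 window holds 2 overlapping matches.
Myd88, chr9:119340039-119340068, minus strand: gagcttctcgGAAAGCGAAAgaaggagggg
Tlr2, chr3:83841761-83841790, minus strand: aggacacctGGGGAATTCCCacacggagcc
Tlr3, chr8:45410572-45410601, minus strand: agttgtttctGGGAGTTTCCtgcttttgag
The match in Myd88 lay 40 to 31 bases before the start, that in Tlr2 173 to 163 bases and that in Tlr3 211 to 202 bases before it. These starts are RefSeq ones. By the gene bounds of the count files, which begin further upstream, the Myd88 and Tlr3 windows lie inside their genes. Myd88 and Tlr3 were both lower in tdTom+ cells, and Tlr2 was not called, as described next.

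Levels of the receptors and adaptors in secretory cells were set against those of the other EpCAM+ cells of the crypt-enriched preparations. For this, tdTom+ was compared with tdTom- in edgeR with the mouse as a block. A gene was called at an adjusted p under 0.01. Of the 10 genes, 8 passed the filter on low counts, 7 were called, and Tlr4 and Tlr9 were too low to test. The endosomal receptor Tlr3, the surface receptor Tlr1, both adaptors and Tollip were lower in tdTom+ cells (5 genes), Tlr5 and Sigirr were higher (2 genes), and Tlr2 missed the threshold. Calls were common across the transcriptome: 55.8% of the 15323 genes tested were called, 25.8% higher and 30.0% lower in tdTom+ cells. The balance of these calls, 3956 higher and 4600 lower, turned round without mouse 3 (4529 higher, 3626 lower) and when only genes with at least 10 counts in every library were tested (4448 higher, 3356 lower). Without the block 2 members were higher and 4 lower, and 49.6% of all genes were called. The differences were of ordinary size, with a median absolute log2 fold change of 0.41 over the 8 genes tested and 0.38 over all genes tested. The median signed change was −0.35 for the 8 genes and 0.02 for all genes.

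**Figure D1:**
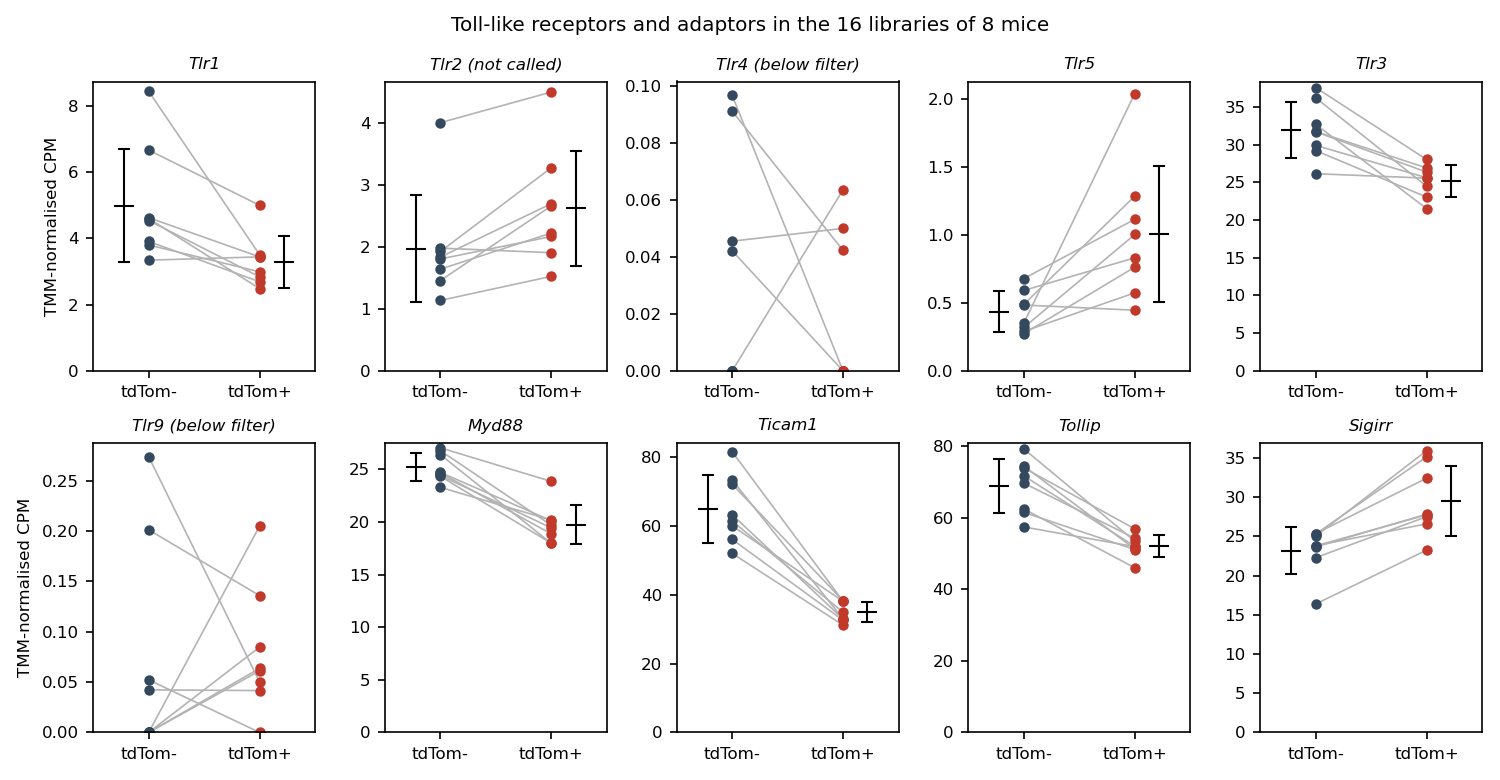
TMM-normalised CPM (vertical axes, from 0) of the 10 genes in the tdTom- (dark) and tdTom+ (red) library of each of the 8 mice, with a grey line for each mouse and, beside the points, the mean and SD over 8 libraries for genes that passed the filter. Ticam1 and Tollip separate the fractions without overlap, and Tlr4 and Tlr9 stay at a few counts.

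Among the surface receptors, Tlr5, the flagellin receptor (ENSMUSG00000079164, GRCm38 chr1:182954788-182976044), was low in both fractions. Its level ran from 0.446 to 2.04 CPM in tdTom+ libraries (median 0.916, 7 to 45 counts) and from 0.274 to 0.678 CPM in tdTom- libraries (median 0.418, 6 to 14 counts). The ranges overlapped, and Tlr5 was higher in the tdTom+ library of 7 of 8 mice. The log2 fold change was 1.16 ± 0.25 (SE, n = 8 mice; edgeR adjusted p = 0.00121), or 2.24-fold, and stayed between 0.93 and 1.40 when 1 mouse was left out at a time. This was the largest change of the 8 genes tested, and 80.4% of all genes tested changed by less. Tlr5 could not be tested when at least 10 counts were required in every library.

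Tlr1 (ENSMUSG00000044827, chr5:64924679-64933563) showed the opposite direction. It lay between 2.48 and 5.0 CPM in tdTom+ libraries (median 3.22) and between 3.34 and 8.44 CPM in tdTom- libraries (median 4.57). The ranges overlapped, and Tlr1 was lower in tdTom+ cells of 7 of 8 mice, mouse 6 being the exception. The log2 fold change was −0.56 ± 0.13 (SE, n = 8 mice; edgeR adjusted p = 0.00198). Without the block for the mouse the call was lost (−0.59, adjusted p = 0.0120), and so it was without mouse 3 (−0.42, adjusted p = 0.0212). Leaving out mouse 3 also raised the fold changes of all genes by a median of 0.10 on the log2 scale, and relative to that shift Tlr1 stood at −0.52.

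The highest Tlr1 value, 8.44 CPM, was that of the tdTom- library of mouse 7, which also held the most leukocyte marker RNA, whereas the tdTom- library of mouse 8, with nearly as much, held 3.80 CPM of Tlr1. With both mice left out Tlr1 remained lower in tdTom+ cells (−0.46, edgeR adjusted p = 0.00604). Leukocyte markers were higher in the tdTom- libraries of the other 6 mice too, and their part in the difference of Tlr1 was not tested.

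**Figure D2:**
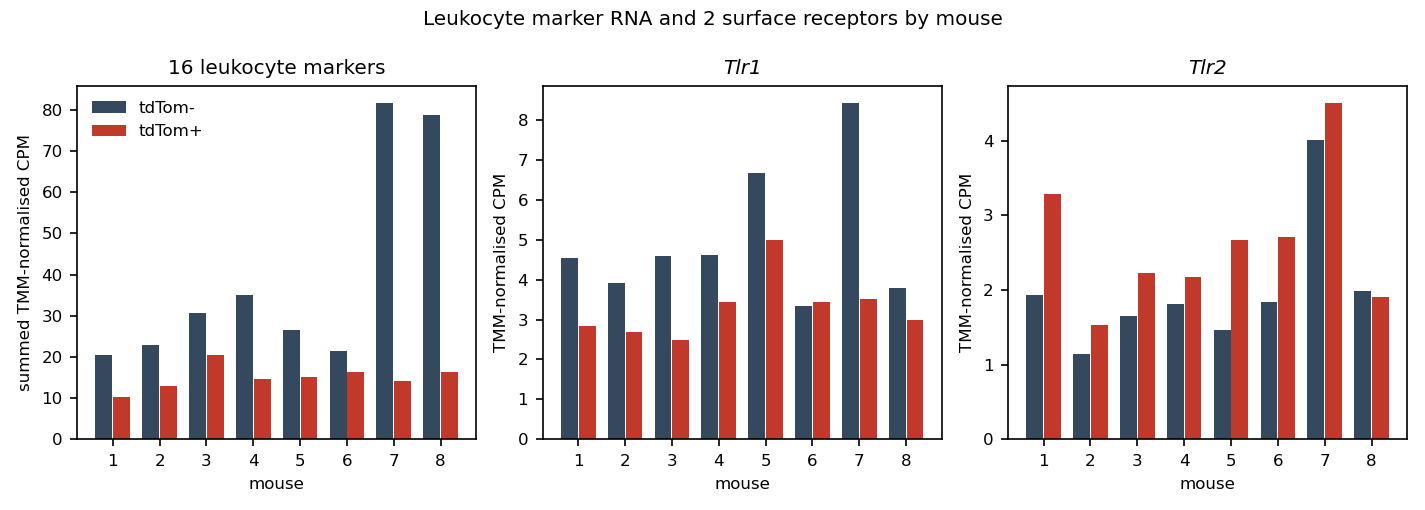
Bars give the summed TMM-normalised CPM of 16 leukocyte markers (left) and the TMM-normalised CPM of Tlr1 (middle) and Tlr2 (right) in the tdTom- (dark) and tdTom+ (red) library of each mouse, numbered on the horizontal axis, with all vertical axes from 0. The tdTom- libraries of mice 7 and 8 stand apart in leukocyte markers at 81.7 and 78.8 CPM; Tlr1 is highest in that of mouse 7, and Tlr2 is high in both libraries of mouse 7.

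Tlr2 (ENSMUSG00000027995, chr3:83836272-83841767), the partner of Tlr1, ran from 1.53 to 4.51 CPM in tdTom+ libraries (median 2.45) and from 1.14 to 4.01 CPM in tdTom- libraries (median 1.83). Mouse 7 was the highest in both fractions, and the tdTom+ library was the higher one in 7 of 8 mice. The log2 fold change of 0.42 ± 0.13 (SE, n = 8 mice) did not pass the threshold (edgeR adjusted p = 0.0113). It passed under 7 of the 18 alternatives, among them without mouse 3 (adjusted p = 0.00643), mouse 7 (adjusted p = 0.00986) or mouse 8 (adjusted p = 0.00579), and without the block the adjusted p was 0.167. Tlr1 and Tlr2 thus stood on opposite sides of 0, but the difference between their changes was not tested.

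Tlr4, the lipopolysaccharide receptor (ENSMUSG00000039005, chr4:66827584-66930284), was close to undetected. Its counts were 0 or 1 in tdTom+ libraries (3 in all, with 5 libraries at 0) and 0 to 2 in tdTom- libraries (6 in all, with 4 libraries at 0). A count of 0 allows up to 3 counts, which is 0.118 to 0.175 CPM at these depths, so a difference in Tlr4 was not detectable at this depth.

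Of the endosomal receptors, Tlr3 (ENSMUSG00000031639, chr8:45395665-45410608) was the more abundant. It lay between 21.5 and 28.0 CPM in tdTom+ libraries (median 25.6) and between 26.1 and 37.6 CPM in tdTom- libraries (median 31.7). The ranges overlapped, but Tlr3 was lower in tdTom+ cells of 8 of 8 mice, with a log2 fold change of −0.34 ± 0.07 (SE, n = 8 mice; edgeR adjusted p = 0.000571). The call was lost without mouse 3 (−0.22, adjusted p = 0.0239) and when only genes with at least 10 counts in every library were tested (−0.22, adjusted p = 0.0110). Under these alternatives the fold changes of all genes shifted upward by a median of 0.10 and 0.12. Relative to these shifts Tlr3 stood at −0.32 and −0.34. The filter leaves a gene's own counts unchanged, so the second value returns to the main one nearly by construction and adds no support. Under the filter the call of Tlr3 thus depended on the scaling.

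Tlr9 (ENSMUSG00000045322, chr9:106222598-106226883) gave 0 to 5 counts in tdTom+ libraries (14 in all, 1 library at 0) and 0 to 6 in tdTom- libraries (12 in all, 4 libraries at 0). It was higher in tdTom+ cells of 4 mice and lower in the other 4, and was too low to test.

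Ticam1, the adaptor of Tlr3 (ENSMUSG00000047123, chr17:56269319-56276786), showed the clearest separation of the 10 genes. It ran from 31.2 to 38.3 CPM in tdTom+ libraries (median 34.0) and from 52.0 to 81.6 CPM in tdTom- libraries (median 62.4). The ranges did not overlap, and Ticam1 was lower in tdTom+ cells of 8 of 8 mice. The log2 fold change was −0.89 ± 0.06 (SE, n = 8 mice; edgeR adjusted p = 2.36e-08), a level 1.85-fold lower, with within-mouse differences from −1.15 to −0.66. Ticam1 passed the threshold under all 18 alternatives. Ranges without overlap were seen for 2 of the 8 genes tested, Ticam1 and Tollip, and for 31.6% of all genes tested.

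Myd88 (ENSMUSG00000032508, chr9:119335934-119341411) was also lower, by a smaller amount. Its level was 18.0 to 23.8 CPM in tdTom+ libraries (median 19.6) and 23.3 to 27.0 CPM in tdTom- libraries (median 24.7). The ranges overlapped only because the tdTom+ library of mouse 7 stood at 23.8 CPM, and Myd88 was lower in tdTom+ cells of 8 of 8 mice. The log2 fold change was −0.35 ± 0.06 (SE, n = 8 mice; edgeR adjusted p = 0.000109). The bounds of Myd88 overlap those of Acaa1a on the opposite strand, which had a mean of 3302 counts per library, and the counting used strand. The bounds of Slc22a14 overlap those of Myd88 on the same strand, where strand cannot separate reads, and Slc22a14 had a mean of 0.38 counts. Whether exons overlap was not checked.

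As both adaptors fell, their ratio was compared within libraries. The log2 ratio of Myd88 to Ticam1, per length, ran from −0.87 to −0.17 in tdTom+ libraries (median −0.61) and from −1.41 to −0.73 in tdTom- libraries (median −1.17). Its ranges overlapped between the fractions, but within each of 8 mice the ratio was higher in tdTom+ cells. The within-mouse difference was 0.53 ± 0.18 (SD, n = 8 mice), with an exact two-sided sign-flip permutation p of 0.00781, the smallest that 8 pairs can give. Within-mouse log2 differences ran from −0.55 to −0.18 for Myd88 and from −1.15 to −0.66 for Ticam1. As these did not overlap, the test restates the changes of the 2 genes and adds no support. On the linear scale there were 0.658 Myd88 transcripts for each Ticam1 transcript in tdTom+ cells and 0.454 in tdTom- cells (from the mean of the log2 ratios).

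Tollip (ENSMUSG00000025139, chr7:141874813-141918507), which binds Irak1 and dampens signalling of Tlr2 and Tlr4, lay between 46.0 and 56.9 CPM in tdTom+ libraries (median 52.0) and between 57.4 and 79.2 CPM in tdTom- libraries (median 70.7). The fractions did not overlap and 8 of 8 mice were lower in tdTom+ cells, with a log2 fold change of −0.40 ± 0.06 (SE, n = 8 mice; edgeR adjusted p = 2.62e-05). Sigirr (ENSMUSG00000025494, chr7:141091175-141100546), a receptor-like inhibitor of Toll-like and interleukin-1 receptor signalling, moved the other way.

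Sigirr ran from 23.2 to 35.9 CPM in tdTom+ libraries (median 27.8) and from 16.4 to 25.3 CPM in tdTom- libraries (median 23.8). The ranges overlapped only through the tdTom+ library of mouse 7, at 23.2 CPM, and Sigirr was higher in tdTom+ cells of 8 of 8 mice. Its log2 fold change was 0.35 ± 0.06 (SE, n = 8 mice; edgeR adjusted p = 0.000152). The 2 inhibitors of the set therefore had changes of similar size in opposite directions.

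Levels were compared between genes per length, as TPM, which is relative to all other transcripts of the same library. In tdTom- cells the order was led by Ticam1 at 41.1 ± 11.6 TPM, followed by Tollip at 30.0 ± 7.42, Sigirr at 21.9 ± 4.92, Myd88 at 18.3 ± 2.85 and Tlr3 at 13.6 ± 2.97 (mean ± SD, n = 8). In tdTom+ cells Sigirr led at 19.4 ± 3.66 TPM, followed by Tollip at 15.7 ± 2.15, Ticam1 at 15.3 ± 2.60, Myd88 at 9.92 ± 0.750 and Tlr3 at 7.43 ± 0.815. Ticam1 thus went from the first place to the third, and Sigirr from the third to the first.

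Not every neighbour in these orders was separated. Tollip exceeded Ticam1 in only 4 of 8 tdTom+ libraries, whereas Ticam1 exceeded Tollip in 8 of 8 tdTom- libraries. Sigirr exceeded Tollip in 7 of 8 tdTom+ libraries, with overlapping ranges. Tlr3 and Tlr1, and Tlr2 and Tlr5, did not overlap in either fraction. Every member but Tlr5 had a lower mean TPM in tdTom+ cells, including Sigirr, whose TMM-normalised CPM was higher there, so fold changes between fractions were taken from the latter scale only, and the orders and shares in TPM describe each fraction.

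**Figure D3:**
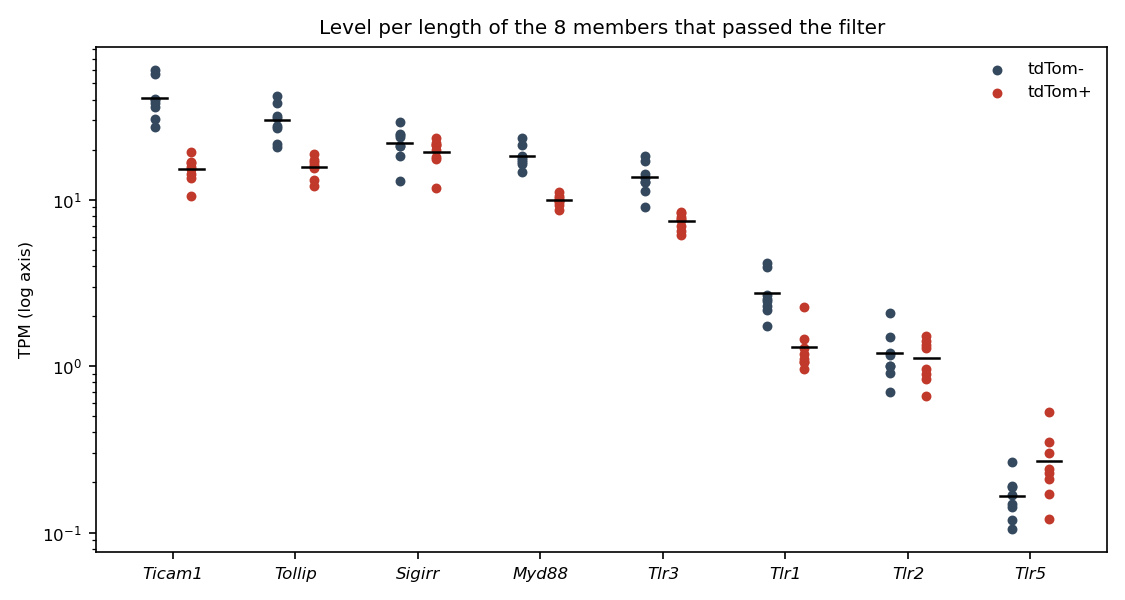
TPM on a log axis for the 8 genes that passed the filter, in the order of their mean in tdTom- cells. Points are the 8 libraries of each fraction (tdTom- dark, tdTom+ red) and bars their means; Tlr3 stands above the other receptors in both fractions, and Ticam1 leads in tdTom- but not in tdTom+ cells.

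Within the receptors Tlr3 dominated. It made up 73.3 ± 4.72% of the summed TPM of the 6 receptors in tdTom+ libraries and 76.5 ± 5.59% in tdTom- libraries (mean ± SD, n = 8). Tlr1 accounted for 12.6 ± 2.90% and 15.4 ± 3.60%, Tlr2 for 11.0 ± 3.25% and 6.86 ± 2.46%, and Tlr5 for 2.70 ± 1.41% and 0.985 ± 0.415%. Tlr4 and Tlr9 each stayed below 1% in both fractions. At the RNA level the receptor repertoire of both fractions was mostly the receptor for double-stranded RNA.

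Other genes of the pathway were taken as 8 lists with 81 genes in all. Of these, 61 could be tested, 14 were higher in tdTom+ cells, 23 were lower and 24 were not called, with a median log2 fold change of −0.08. Over all genes tested the shares were 25.8% higher and 30.0% lower, so counts in these lists are read as descriptions. The remaining Toll-like receptors were nearly silent: only Tlr6 of 6 passed the filter, and it did not pass the test (−0.09, edgeR adjusted p = 0.756).

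Among 12 co-receptors and chaperones 10 were tested, 3 were higher and 2 were lower. Lbp, the lipopolysaccharide-binding protein, averaged 11.8 ± 5.17 CPM in tdTom+ cells against 0.378 ± 0.299 CPM in the tdTom- fraction (SD, n = 8; log2 fold change 4.91, edgeR adjusted p = 4.75e-10), although Tlr4 itself was at a few counts. Lbp had only 3 to 24 counts in tdTom- libraries, so the size of its change is uncertain. The chaperone of Toll-like receptors Hsp90b1 (0.43) and its partner Cnpy3 (0.34) were modestly higher on the log2 scale. Cd36, a lipid scavenger receptor that also serves Tlr2, fell from 72.8 ± 23.2 CPM in tdTom- to 8.86 ± 3.67 CPM in tdTom+ cells (−3.06, adjusted p = 2.94e-12), and Lrrc59, a protein of the endoplasmic reticulum, was lower by a log2 fold change of −0.47.

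Of the 4 other adaptors with a TIR domain 2 were tested, and both were higher in tdTom+ cells. Tirap, which bridges Tlr2 and Tlr4 to Myd88, averaged 22.7 ± 3.07 CPM in tdTom+ cells against 8.44 ± 0.984 CPM in the tdTom- fraction (SD, n = 8; log2 fold change 1.42, edgeR adjusted p = 5.57e-09) with no overlap. Pik3ap1, which links receptors to PI3-kinase, rose by 0.77 on the log2 scale (adjusted p = 0.00278), a call that was lost without the block (adjusted p = 0.0622). Tirap and the adaptor it recruits, Myd88, therefore changed in opposite directions.

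All 18 signalling kinases and ligases were tested, with 4 higher, 6 lower and 8 not called. Irak1 and the ubiquitin ligase Peli2 were higher in tdTom+ cells by log2 fold changes of 0.75 and 1.84. Irak4, the kinase that first binds Myd88, was lower (−0.75), and so were Irak2 (−1.71) and Tbk1 (−1.0), the kinase downstream of Ticam1 that phosphorylates Irf3. Irak2 fell from 67.4 ± 13.1 CPM in tdTom- to 20.3 ± 2.50 CPM in tdTom+ cells (SD, n = 8; edgeR adjusted p = 1.53e-10). The ranges of these 5 genes, picked as the largest changes of their list, did not overlap, as for 31.6% of all genes tested.

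The largest change among the pathway genes was that of Irak3 (IRAK-M), an inhibitor that blocks the release of Irak1 from the receptor complex. Its mean tdTom- level lay within the counting floors of 0.118 to 0.175 CPM, so the size of this change is uncertain. Irak3 passed the filter on low counts only through the tdTom+ libraries. Lbp above and Il18r1 below also passed only through these, and Il1b below only through the tdTom- libraries. Like these genes and Tlr5, Irak3 could not be tested when at least 10 counts were required in every library. It had 157 to 267 counts in tdTom+ libraries and 1 to 5 in tdTom- libraries, or 9.76 ± 1.90 against 0.149 ± 0.0752 CPM (SD, n = 8; log2 fold change 5.97 ± 0.18 SE, edgeR adjusted p = 4.52e-12). Of the 11 other negative regulators 10 were tested, 2 were higher and 6 were lower (3 without mouse 3 and 3 with at least 10 counts in every library, where the fold changes of all genes shifted as given above). Dusp1, a phosphatase of MAP kinases, was the other one higher (1.66). Tnfaip3 (A20) and its partner Tnip1 fell by 1.09 and 0.90 on the log2 scale, and the NF-kB inhibitor Nfkbib was lower by a log2 fold change of −0.41.

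Of 9 transcription factors 2 were higher and 5 lower. Nfkb2, the precursor of p52, rose from 22.3 ± 4.36 CPM in tdTom- to 102 ± 12.4 CPM in tdTom+ cells (SD, n = 8; log2 fold change 2.20, edgeR adjusted p = 3.61e-11). Rel, Relb, Irf1 and Nfkb1 were lower by log2 fold changes of −0.92, −0.73, −0.40 and −0.31. The NF-kB subunits therefore did not move as 1 group.

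**Figure D4:**
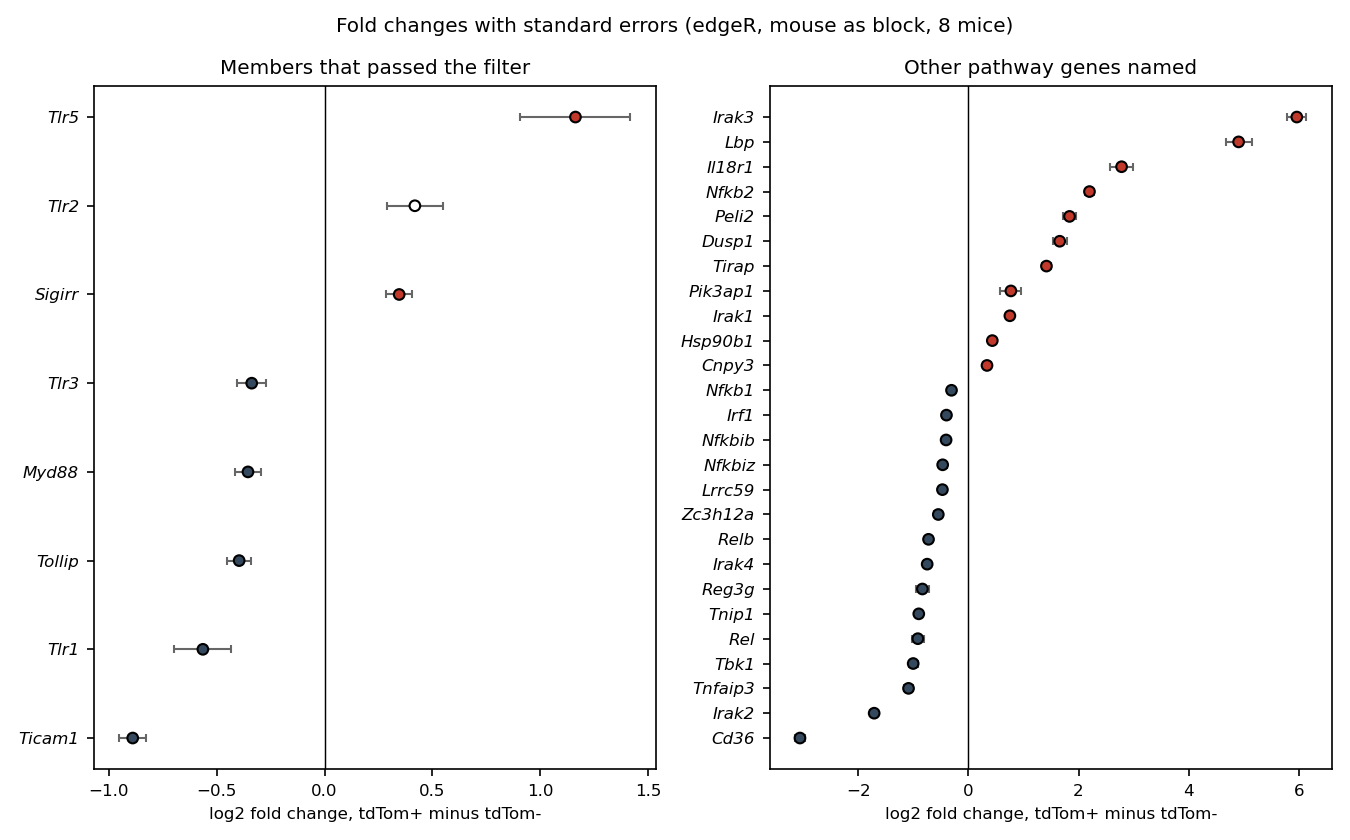
Log2 fold change (tdTom+ minus tdTom-, horizontal axis) with its standard error from edgeR with the mouse as a block, for the 8 members that passed the filter (left; the open point, Tlr2, was not called) and for the called genes named from the pathway lists (right; note the wider axis). Red points are higher and dark points lower in tdTom+ cells; members span −0.89 to 1.16, and the pathway genes −3.06 to 5.97.

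Receptors of the interleukin-1 family share Myd88 with the Toll-like receptors. Of 7 such genes 2 passed the filter, and 1 was called: Il18r1, the receptor chain for interleukin-18, averaged 3.11 ± 0.584 CPM in tdTom+ cells against 0.455 ± 0.175 CPM in the tdTom- fraction (SD, n = 8; log2 fold change 2.78, edgeR adjusted p = 4.13e-08). Il18r1 had only 5 to 13 counts in tdTom- libraries, so the size of its change is uncertain. Il1rap, the shared accessory chain, did not pass (0.24, adjusted p = 0.0150). With mouse 3 or mouse 7 left out, 2 genes of this list were called.

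Genes that such signalling can induce were also counted. Of 15, 9 were tested, 0 were higher in tdTom+ cells and 4 were lower: Reg3g, an antimicrobial lectin (−0.84), Zc3h12a, a ribonuclease that degrades cytokine mRNA (−0.55), Nfkbiz, a nuclear cofactor of NF-kB (−0.47), and Il1b (−5.16). Without the block 1 of the 4, Il1b, kept its call, and the edgeR adjusted p was 0.0247 for Reg3g, 0.0251 for Zc3h12a and 0.0227 for Nfkbiz. Il1b, a cytokine of myeloid cells named here after its values were seen, had 0 to 2 counts in tdTom+ libraries, against 10 to 116 counts in the tdTom- ones. It moved with the leukocyte markers, whose part in its difference was not tested.

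The pattern of the member with the largest rise and of the one with the largest fall was compared with all genes tested, over 16 libraries after the mean of each fraction was subtracted. The genes most like Tlr5 were Ints6 (Pearson r = 0.79), Gm14719 (r = 0.71) and Gm2004 (r = 0.71), and those most like Ticam1 were Tor1aip2 (r = 0.94), Ap2a2 (r = 0.94) and Abhd4 (r = 0.93). These values are descriptions: the points share libraries, depth and mice, and they were the highest of all genes tested.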

How the data were processed

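RNA was measured in 16 libraries, 8 tdTom+ and 8 tdTom-. Per the submitters' notes and the methods, the authors made TruSeq Stranded mRNA libraries and aligned the reads with TopHat2 2.1.1 to GRCm38.p3. What the authors deposited are counts of reads for each Ensembl gene without normalization, produced by featureCounts (1.5.0-p1 in the file headers, Subread 1.5.2 in the notes) over exons, on the reverse strand and from primary alignments only. The headers carry a paired-end option and the methods state single-end reads, so whether a count is a read or a fragment was not resolved.

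Counts were analysed in R 4.3.3 with edgeR 4.0.16: filterByExpr by group (15323 genes), TMM factors, and the quasi-likelihood F-test with the mouse as a block, with Benjamini-Hochberg adjustment over all genes tested. Symbols came from GENCODE M21, which matched 44585 of 45513 identifiers. CPM used TMM factors, and TPM used the files' exon length. The prior count for log2 CPM was 2, and the ratio of adaptors used a pseudocount of 0.5 counts. Counting floors were 3 counts per library and cover counting error only. Tlr1 has a close paralog in Tlr6, and reads from stretches they share may be assigned to either.

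The block rests on mouse numbers in the sample titles, which both fractions of a mouse share. Deviations of log2 CPM from the fraction means correlated with a mean r of 0.426 (0.245 to 0.634) over 8 same-mouse pairs and −0.0569 over other pairs. P-values of the blocked fit rest on the spread, over these mice, of the difference between fractions within a mouse.

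The 10 members, the pathway and marker lists and the tests were chosen with earlier results of these data known. Named pathway genes were, of each list, the called genes with the largest rise and the largest fall at a mean of at least 1 CPM, and up to 3 more by absolute log2 fold change. Likeness was computed for the called members with the largest rise and fall. Alternatives were no block, RLE factors (DESeq2's), total counts, TMM without the 10 most counted genes, DESeq2 1.42.0, limma-voom (limma 3.58.1), no filter, at least 10 counts in every library, thinning to 17116405 counts, other thresholds and leaving out each mouse; leaving out mice 7 and 8 together was added after seeing the data. The scripts were tested on simulated data.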

Additional observations from a re-analysis of the deposited data

Results flagged for a closer look

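Of 20 sets of 8 values (10 genes in 2 fractions), 3 held a value whose gap to its nearest neighbour, as a share of the range of the set, exceeded Dixon's 95% limit for 8 values, and chance gives about 1 in 20. All 3 values came from mouse 7. Myd88 in the tdTom+ library of mouse 7 was the highest of its group (gap 0.588), at a log2 CPM of 4.58 against 4.17 to 4.34 in the other 7. Tlr2 in the tdTom- library of mouse 7 was the highest (gap 0.566), at 2.04 against 0.31 to 1.06. Sigirr in the tdTom- library of mouse 7 was the lowest (gap 0.705), at 4.04 against 4.48 to 4.67. That tdTom- library also held the most leukocyte marker RNA (81.7 CPM), and its tdTom+ library did not stand apart in those markers (14.1 CPM). Mouse 7 also had the lowest summed absorptive markers in both fractions. They stood at 1563 CPM in its tdTom+ library, against 2821 to 6021 CPM in the other mice. In its tdTom- library they stood at 14550 CPM, against 24823 to 38346 CPM. Its tdTom+ library had the highest summed Paneth markers, at 139451 CPM against at most 97277 CPM. The part of leukocyte RNA or of the mix of epithelial cells in these values was not tested.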

How the results depend on the processing

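No fold change of a member or of a pathway gene named by the rule changed sign under the alternatives run, nor did the ratio of adaptors, but the balance of calls over all genes did: 3956 higher and 4600 lower became 4529 and 3626 without mouse 3, and 4448 and 3356 with at least 10 counts in every library. The median log2 fold change of all genes, 0.02, became −0.046 with total counts. When calls also needed a log2 fold change of 1 or more in size, those over all genes went from 3956 to 1740 higher and from 4600 to 1758 lower, calls of members from 2 to 1 higher and from 5 to 0 lower, and calls of pathway genes from 14 to 7 higher and from 23 to 5 lower. Leaving out each mouse in turn gave 2 to 3 members higher and 3 to 5 lower, the 3 being without mouse 3; 14 to 17 pathway genes were then higher and 20 to 23 lower. Without the replicate block, 2 members were higher and 4 lower, and 13 pathway genes were higher and 17 lower; the calls lost among genes named were those of Tlr1, Pik3ap1, Reg3g, Zc3h12a, Nfkbiz and Irf3. With mice 7 and 8 left out, 3 members were higher and 5 lower. The ratio of Myd88 to Ticam1 kept a difference of 0.49 to 0.57 when 1 mouse was left out. Tlr5 rests on 6 to 45 counts per library, and Tlr4 and Tlr9 could not be tested. Filtering for at least 10 counts in every library shifted the fold changes of all genes by a median of 0.12. Leaving out mouse 3 shifted them by 0.10. Relative to these shifts Myd88 stood at −0.35 and −0.34 and Tollip at −0.40 under both. The values under the filter return to the main ones nearly by construction, as the filter leaves the counts of a gene unchanged.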

Other observations

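Further pathway genes were called that the rule for named genes left out; they are named here after their values were seen. Among the signalling proteins, Traf6, the ubiquitin ligase downstream of Irak1, was higher in tdTom+ cells of 8 of 8 mice at 27.4 against 20.7 CPM (mean, n = 8; log2 fold change 0.41), and so was Tab1 (0.26), a partner of the kinase Map3k7, which itself did not pass the test (0.09, edgeR adjusted p = 0.209). Chuk (IKK alpha) was lower in 8 of 8 mice at 66.7 against 112 CPM (−0.73), whereas Ikbkb (0.03, edgeR adjusted p = 0.614) and Ikbkg (−0.03, adjusted p = 0.655), the other subunits of the same kinase complex, were not called. Rela was higher (0.30) and Irf3, the factor downstream of Ticam1 and Tbk1, was lower (−0.27), each in 8 of 8 mice. The call of Irf3 was lost without the block (edgeR adjusted p = 0.0225) and with at least 10 counts in every library (adjusted p = 0.0114).

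Chemokines and cytokines of the induced list were low in both fractions, the highest value being 5.29 CPM for Il1b in a tdTom- library. Cxcl2 gave 0 to 1 counts in tdTom+ and 3 to 13 in tdTom- libraries and was too low to test. Cxcl1 gave 0 to 3 counts in tdTom+ and 1 to 5 in tdTom- libraries, Il6 gave 0 and 0 to 2 counts, and Ifnb1 gave 0 counts in all 16. Ccl20 (2.43 against 2.09 CPM, edgeR adjusted p = 0.149) and Tnf (1.78 against 1.82 CPM, adjusted p = 0.889) were measurable and were not called.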
